A study of Rattus norvegicus with 6 samples.

Results

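Gene expression in rat liver was compared between 24 h and 6 h after the first oral dose of tienilic acid (TA), a uricosuric diuretic that was withdrawn because of liver injury. The comparison took the 2 arrays labelled as TA at 24 h against the 2 labelled as TA at 6 h, and the difference between the vehicle pools of the same times was set beside it, so that all 6 of the study's 6 arrays entered. All animals were male Sprague Dawley rats with free access to chow and water under a regular cycle of light and dark. The TA animals of 6 h received 1 dose of 100 mg/kg in sodium bicarbonate and were killed 6 h later. The TA animals of 24 h were other rats, which received 100 mg/kg at 0 h and again at 16 h and were killed at 24 h, 8 h after the second dose. Each TA array held the RNA of 1 animal. Each vehicle array held pooled RNA of 2 rats, given sodium bicarbonate alone, once for the 6 h pool and at both times for the 24 h pool. The groups of 24 h thus differed from those of 6 h in time of day, in the number of gavages and in the hours since the last one, and these cannot be told apart. The clock hour of dosing and the feeding state at killing are not given in the sources used here.

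All values are deposited log2 expression values of Affymetrix probe sets, and a difference of 1 on this scale is 2-fold. Array medians lay between 3.27 and 3.31, and correlations between arrays over all tested probe sets between 0.984 and 0.994. Albumin, Alb, the main plasma protein made by hepatocytes, was between 16.54 and 16.67 on all 6 arrays. By the hybridization times recorded in the array settings, the arrays fell into an earlier and a later fluidics run. The first held 2 arrays, TA_6h animal 1 and the pool of 6 h, and the later, called the second run here, held 4. The vehicle difference between the times therefore cannot be told apart from the run, while the TA difference was also taken within the second run, from TA_6h animal 2 alone. Below, "without overlap" means that both TA animals of 24 h lay on the same side of both TA animals of 6 h. Over all 10449 genes, 24% were higher and 23.2% lower without overlap. Each count for a gene list below is to be read beside these shares. An exact permutation test of 2 against 2 arrays cannot go below a two-sided p of 0.333, and the vehicle pools, with 1 array a time, are given as values.

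The liver keeps daily time with a feedback loop of transcription factors. BMAL1, with CLOCK or NPAS2, activates the genes of its own repressors PER and CRY and of the nuclear receptors REV-ERB alpha and beta (Nr1d1, Nr1d2) through E-boxes. The REV-ERBs repress Bmal1 and other genes through ROR response elements, where the ROR receptors activate, and the factors DBP, TEF and HLF act through D-boxes against the repressor NFIL3. In the liver this loop sets daily rhythms of lipid, glucose and bile acid metabolism together with the rhythm of feeding. Of 20 measured clock genes, 16 matched an entry among RefSeq promoters of the build GRCr8, and Cry1, Hlf, Wee1 and Tspan4 did not. The 250 bases upstream of the start are printed for the PER and BMAL1 genes that were higher at 24 h and for the REV-ERB genes that were lower, 5′ to 3′ on the gene's strand, with motif matches in capitals. Per2 lies at chr9:99496994-99497243 on the minus strand, Bmal1 at chr1:176766078-176766327 on the plus strand, Nr1d1 at chr10:84231813-84232062 on the minus strand and Nr1d2 at chr15:9954784-9955033 on the plus strand.
Per2: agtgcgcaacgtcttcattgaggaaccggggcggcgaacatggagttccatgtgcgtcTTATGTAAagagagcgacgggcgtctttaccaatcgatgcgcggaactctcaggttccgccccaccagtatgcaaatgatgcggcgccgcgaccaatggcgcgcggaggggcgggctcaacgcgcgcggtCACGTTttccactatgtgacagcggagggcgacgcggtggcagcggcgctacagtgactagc
Bmal1: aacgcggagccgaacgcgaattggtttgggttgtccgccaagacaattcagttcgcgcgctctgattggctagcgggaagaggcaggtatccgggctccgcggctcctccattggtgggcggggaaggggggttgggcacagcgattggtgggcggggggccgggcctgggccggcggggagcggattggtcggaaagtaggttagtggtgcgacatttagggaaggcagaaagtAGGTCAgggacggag
Nr1d1: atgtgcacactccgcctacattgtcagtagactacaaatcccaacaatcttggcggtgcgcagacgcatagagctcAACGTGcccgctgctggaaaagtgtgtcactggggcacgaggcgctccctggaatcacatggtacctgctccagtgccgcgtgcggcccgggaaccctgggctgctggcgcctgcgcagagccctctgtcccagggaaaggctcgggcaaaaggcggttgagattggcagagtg
Nr1d2: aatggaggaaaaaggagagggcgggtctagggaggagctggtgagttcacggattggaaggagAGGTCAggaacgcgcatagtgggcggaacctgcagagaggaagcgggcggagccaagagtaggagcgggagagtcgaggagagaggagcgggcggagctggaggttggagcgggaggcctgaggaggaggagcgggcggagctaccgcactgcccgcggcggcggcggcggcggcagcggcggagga

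Motifs were searched on both strands. The Per2 stretch holds a D-box match (TTANNTAA) whose first base is at -192 from the start, and a match to CACGTT, an E-box variant that differs from the E-box in its last letter, at -62. The Nr1d1 stretch holds the variant on the opposite strand at -174. The core of the ROR response element, AGGTCA, begins at -15 in Bmal1 and at -187 in Nr1d2. The canonical E-box, CACGTG, was found in 2 of the 16 matched clock promoters, Tef and Bhlhe40, against 5.79% of all 27457 promoters. The E-box variant was in 3 of 16 against 4.14%, the D-box in 1 of 16 against 5.33%, and the ROR core in 3 of 16 against 13.7%. A match is a description of these letters and says nothing of binding.

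The clock genes listed as driven through E-boxes and D-boxes held the largest differences in both directions. Their membership came from that list and not from the motif search. Nr1d1, which encodes the repressor REV-ERB alpha, was at 7.30 and 6.73 in the TA animals of 6 h and at 1.96 and 1.96 in those of 24 h. The vehicle pools were at 7.51 and 1.97. All 3 arrays of 24 h were at the floor of the values, where no lower level can be read. In a fit with a time effect shared by TA and vehicle, Nr1d1 fell by 5.21 ± 0.19 (SE, limma, adjusted p = 0.0417). It was the only member of any gene list called in that fit, in which 3 of 18625 probe sets (0.0161%) passed, 2 higher (0.0107%) and 1 lower (0.00537%). The call was lost, with -5.05 to -5.26, when any 1 array other than TA_6h animal 2 was left out. Within the second fluidics run its TA difference was -4.77.

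Nr1d2, encoding REV-ERB beta, was at 10.97 and 10.81 at 6 h and at 7.61 and 6.61 at 24 h with TA, and at 11.46 and 7.14 in the vehicle pools. Its TA difference was -3.78 ± 0.39 and its vehicle difference -4.32 (shared effect, limma, adjusted p = 0.0553). Dbp, encoding the activator at D-boxes, was at 7.80 and 6.85 at 6 h and at 4.91 and 3.56 at 24 h, with 8.51 and 4.09 in the pools. Both genes were thus low in TA and in vehicle livers at 24 h, and neither time group overlapped the other. Tef, a relative of Dbp, did not show the same split with TA on its brightest probe set. It was there at 8.19 and 7.96 against 7.87 and 8.0, while its pools were at 8.89 and 7.71. A second, dimmer probe set of Tef was lower without overlap, at 5.35 and 4.42 against 4.3 and 4.22, with 4.77 and 4.25 in the pools.

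Per2, encoding a repressor of the loop, was at 5.0 and 5.27 in the TA animals of 6 h and at 8.60 and 8.87 in those of 24 h, and the pools were at 5.72 and 8.49. Its difference with TA was 3.60 ± 0.16, with 2.76 in vehicle (shared effect 3.32 ± 0.22, limma, adjusted p = 0.0538). A second probe set of Per2 had 2.19 with TA and 0.79 in vehicle. Cry1, encoding the partner of PER, was at 4.19 and 4.92 at 6 h and at 8.91 and 8.85 at 24 h, against 5.40 and 8.75 in the pools, a TA difference of 4.33 ± 0.28. Per2 and Cry1 were high on all 3 arrays of 24 h. Cry2 was higher by 0.24 ± 0.10 with TA and by 0.17 in vehicle. Per1 and Per3 stayed between 3.01 and 3.37 on every array, near the floor of the values, and give no information on the time of day.

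Bmal1, the activator of the loop, was at 7.50 and 6.97 at 6 h and at 8.33 and 8.22 at 24 h with TA, and at 6.91 and 8.18 in the pools. Its difference was 1.04 ± 0.21 with TA and 1.27 in vehicle. Nfil3, the D-box repressor, and Rora, an activator at ROR response elements, were higher at 24 h by 0.81 ± 0.39 and 0.89 ± 0.26, with 1.52 and 0.78 in vehicle. Clock, encoding the partner of BMAL1, was higher by 0.19 ± 0.09 on its brightest probe set, while its 2 other probe sets had 0.05 and -0.05. Npas2, the paralog of Clock, had -0.30 ± 0.47 with overlapping animals. Of the 6 measured genes of the activator limb and of REV-ERB repression, 5 were higher at 24 h without overlap, Cry1 among them, all 5 also higher in vehicle, and 0 were lower. The median difference was 0.85 with TA (0.53 without TA_6h animal 1) and 1.03 in vehicle. Over all 10449 genes, 24% were higher and 23.2% lower without overlap, 17.7% and 19% with the vehicle pools in the same direction, and the medians were 0 and -0.01.

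Noct, encoding nocturnin, a phosphatase that acts on NADPH, had the largest positive measured difference with TA, from a level at the floor. It was at 2.17 and 2.31 at 6 h and at 7.74 and 7.06 at 24 h with TA, and at 2.65 and 5.02 in the pools. The 3 arrays of 6 h were at the floor, so that the sizes given next are not exact. Its difference was 5.16 ± 0.27 with TA and 2.37 in vehicle, and the excess of 2.79 ± 0.46 was not called (limma, adjusted p = 1). Wee1, a kinase that holds CDK1 inactive, was at 4.74 and 4.92 and then at 6.42 and 6.71, with 5.16 and 6.19 in the pools. Hlf was higher by 1.15 ± 0.13 with TA and 1.10 in vehicle, and 2 of its 3 other probe sets were higher as well, by 2.02 and 1.32, while the other was at the floor with -0.01. Usp2, a deubiquitinase with a daily rhythm in liver, had 0.92 ± 0.41, and 2.90 on its other probe set. Bhlhe40, encoding the repressor DEC1, went apart from the others, at 4.47 and 7.81 and then 8.16 and 9.11 with TA while its pools were at 8.43 and 7.32. Tspan4 was higher by 0.36 ± 0.09. Of the 14 measured genes of the E-box and D-box list, 8 were higher and 3 lower without overlap, and 7 and 3 of these moved the same way in vehicle.

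With a filter that kept only the upper 40 percent of probe sets by mean level (the 60th percentile filter), 257 of 12417 probe sets (2.07%) passed the test of the shared effect, among them Per2, Cry1, Nr1d2, Dbp, Bmal1, Hlf and Wee1. Nr1d1 and Noct lay below that filter. Apart from Bhlhe40, Npas2, Per1 and Per3, the TA and vehicle differences of the clock genes had the same sign on their brightest probe sets.

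**Figure D1:**
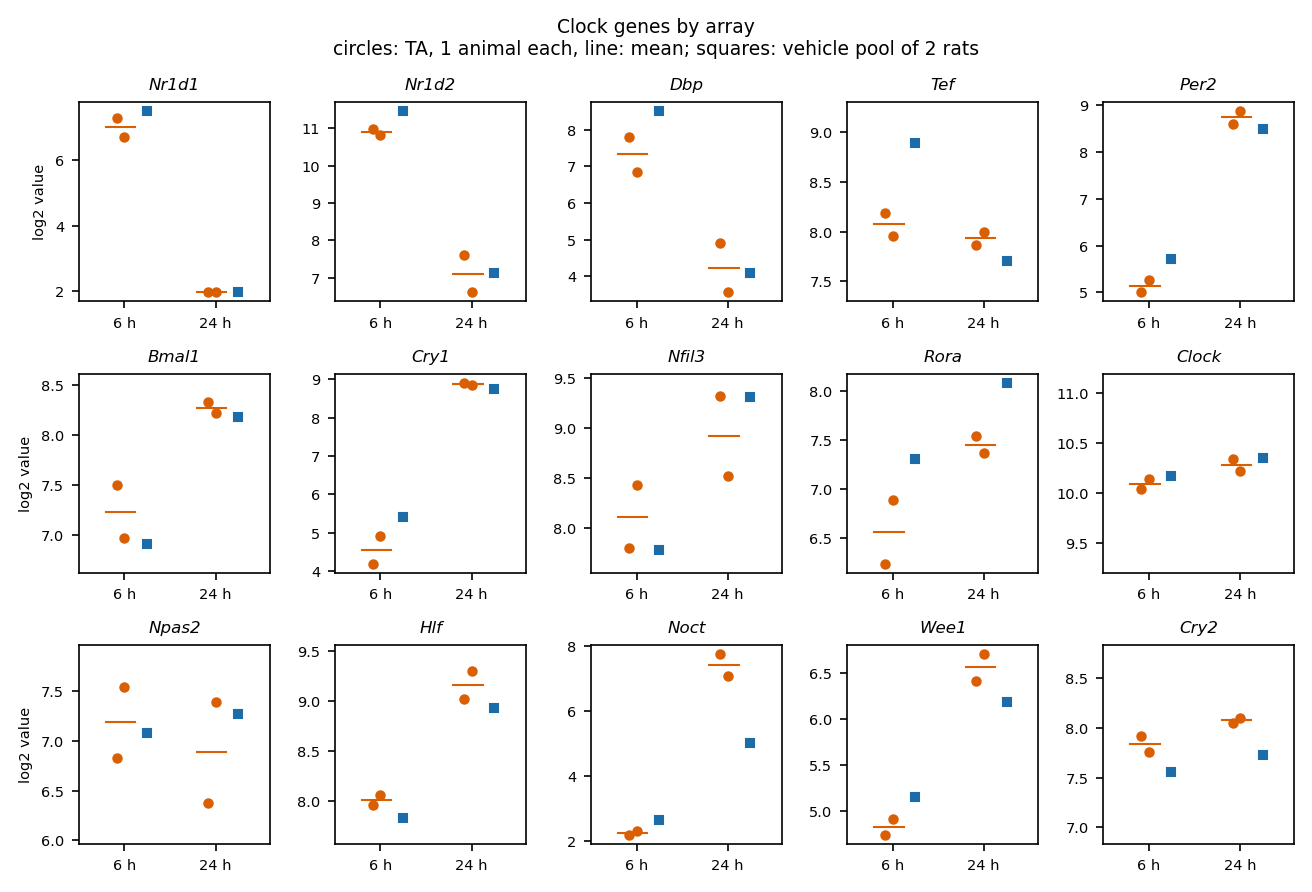
Log2 values of 15 clock genes on each array at 6 h and 24 h, with circles for TA animals, a line for their mean and squares for vehicle pools. Nr1d1, Nr1d2 and Dbp are low and Per2, Cry1, Bmal1 and Wee1 high on all 3 arrays of 24 h, and Noct is higher with TA than in the pool at 24 h.

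Across all 18625 tested probe sets, limma called 0 between TA at 24 h and TA at 6 h (smallest adjusted p = 0.136). At an unadjusted p under 0.05, 1470 probe sets (7.89%) were higher and 1290 (6.93%) lower, and for the shared effect 1724 (9.26%) and 1781 (9.56%). At least 2-fold apart without overlap were 100 probe sets higher (0.537%) and 75 lower (0.403%), or 63 (0.603%) and 46 (0.44%) of the 10449 genes. The 2 TA animals of a time were themselves 2-fold apart in 417 probe sets at 6 h and 538 at 24 h. Of the 100, 93 were also higher in the vehicle pool of 24 h, 47 of them by 2-fold (47%), and 3 were lower by 2-fold (3%). Of the 75, 70 were also lower (93.3%), 38 of them by 2-fold (50.7%), and 2 were higher by 2-fold (2.67%). Over all probe sets the vehicle pools were past 2-fold higher in 271 (1.46%) and lower in 320 (1.72%), and 37.7% were higher at any size. The rest were lower or level in vehicle, with a median difference of -0.01. The 93.3% of the lower ones thus stands against a larger share than the 93 of the 100 higher ones. Read the other way, 17.3% of the 271 and 11.9% of the 320 were 2-fold apart without overlap with TA. The TA and vehicle differences share no array, and their correlation across the tested probe sets, which are not independent replicates, was 0.49. They do share the contrast between the fluidics runs, wholly in vehicle and in part, through TA_6h animal 1, with TA. Its part in the correlation and in the counts of like direction was not tested.

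**Figure D2:**
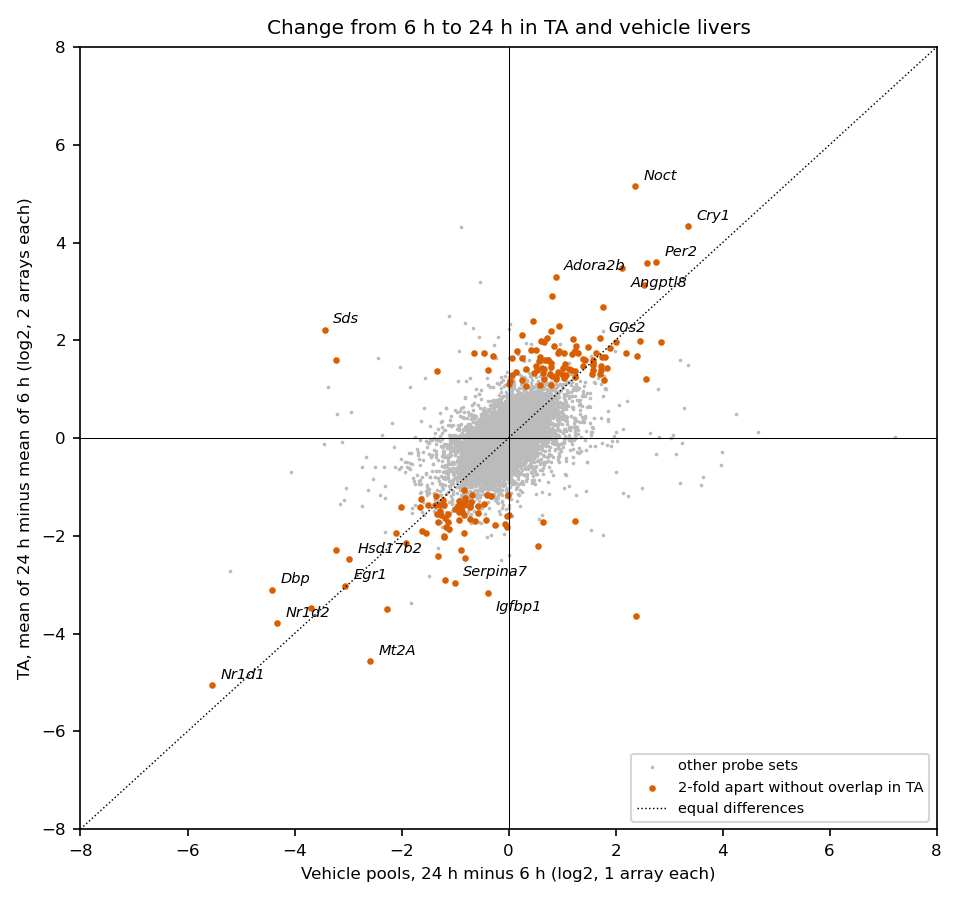
Each point is a probe set, with the log2 difference of 24 h minus 6 h between the vehicle pools on the horizontal axis and between the means of TA animals on the vertical axis. Orange points are the 175 probe sets 2-fold apart without overlap with TA, most of them in the upper right and lower left, and Sds stands in the upper left.

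The shared effect also called Cdca5l1, at 5.32 and 5.36 with TA at 6 h and 6.95 and 6.92 at 24 h, with 5.10 and 6.53 in the pools. It rose by 1.54 ± 0.06 (limma, adjusted p = 0.0417). The other probe set called has no gene symbol here and rose by 1.70 ± 0.07, with all 3 arrays of 6 h between 5.95 and 6.02 and all 3 of 24 h between 7.59 and 7.76. These 3 calls were few and close to the threshold. Of them 0 remained without the filter, with each array centred on its median, or with the fluidics run as a term. In that last fit the shared difference of Nr1d1 was -4.8.

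Several genes of the insulin and fasting response were lower at 24 h in TA and vehicle livers. Irs2, the insulin receptor substrate that liver makes in fasting, was at 5.46 and 5.72 at 6 h and at 3.45 and 3.43 at 24 h with TA, and at 5.35 and 3.44 in the pools. The 3 arrays of 24 h were near the floor, so that the sizes given next are not exact. The difference was -2.15 ± 0.12 with TA and -1.91 in vehicle (shared effect, limma, adjusted p = 0.0538). Ppargc1a, encoding the coactivator of gluconeogenic and mitochondrial genes, was at 6.34 and 6.55 and then at 4.48 and 4.35 with TA, and at 6.60 and 5.40 in the pools. Pdk4, the kinase that shuts pyruvate dehydrogenase, had -0.63 ± 0.17 and -0.74, and Pc, pyruvate carboxylase, -0.67 ± 0.11 and -0.70. Foxo1, the factor that insulin inactivates, had -0.63 ± 0.25, and the fasting hormone gene Fgf21 -0.57 ± 0.16. Of the 15 measured genes of the fasting list, 8 were lower and 2 higher without overlap, and all 10 went the same way in vehicle, with medians of -0.22 and -0.39. That of TA was -0.54 without TA_6h animal 2 and -0.42 without TA_24h animal 1.

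Unlike Pc, 2 other gluconeogenic enzyme genes were near the same level at both times, and G6pc was not analysed here. Pck1, the cytosolic phosphoenolpyruvate carboxykinase, was between 14.08 and 14.25 on all 6 arrays, and Fbp1, fructose bisphosphatase, between 14.46 and 14.64. Igfbp1, a secreted binding protein of insulin-like growth factors that insulin represses, was at 10.26 and 9.08 at 6 h and at 5.85 and 7.16 at 24 h with TA, and at 8.41 and 8.02 in the pools. Its TA difference of -3.16 ± 0.66 stood beside -0.39 in vehicle, and the excess of -2.77 ± 1.14 was not called (limma, adjusted p = 1). Its relative Igfbp2 had -2.46 ± 0.27 with TA and -0.81 in vehicle. The TA animals of 6 h were above the pool of 6 h, and those of 24 h below the pool of 24 h, for both genes. Slc25a25, a mitochondrial carrier of adenine nucleotides, went the other way, at 8.69 and 9.68 and then at 11.47 and 11.09 with TA, with 9.61 and 9.88 in the pools.

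Some genes of fat storage and synthesis were higher at 24 h. G0s2, which inhibits the lipase ATGL, was at 12.19 and 12.04 at 6 h and at 14.08 and 14.26 at 24 h with TA, and at 12.44 and 14.15 in the pools. Its difference was 2.05 ± 0.12 with TA and 1.70 in vehicle (shared effect, limma, adjusted p = 0.0538). Angptl8, encoding a hormone of the fed state that restrains lipoprotein lipase, was at 8.68 and 8.47 and then at 11.70 and 12.38, with 9.60 and 11.72 in the pools. Srebf1, encoding the factor that drives fatty acid synthesis under insulin, was at 10.20 and 10.01 and then at 11.72 and 11.66, with 10.62 and 11.36 in the pools. All 3 genes were higher on each array of 24 h than on each of 6 h.

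Thrsp, a lipogenic protein of liver, had 1.34 ± 0.19 with TA and 0.47 in vehicle, and Acly, which makes cytosolic acetyl-CoA from citrate, 0.77 ± 0.16 and 0.83. Elovl6, a fatty acid elongase, and Gpam, which begins triglyceride synthesis, had 0.68 ± 0.18 and 0.88 ± 0.23. Pnpla3, a lipid droplet protein, was at 5.24 and 5.63 and then at 9.17 and 6.06, so that 1 animal carried most of its 2.18 ± 1.17. Plin2, the coat protein of lipid droplets, had 0.99 ± 0.27 and 0.30 in vehicle. Fasn, fatty acid synthase, overlapped between the times, though its other probe set had 1.04 ± 0.40, and Scd, the stearoyl-CoA desaturase, had -0.09 with TA and -0.42 in vehicle. Of the 19 measured genes of fatty acid synthesis, 7 were higher and 2 lower without overlap, all 9 in the same direction in vehicle, and the medians were 0.09 (0.31 without TA_24h animal 1) and -0.06.

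On the side of fatty acid oxidation the clearest gene was Cpt1a, which lets long-chain fatty acids enter mitochondria. It was at 12.03 and 11.98 at 6 h and at 10.19 and 10.37 at 24 h with TA, and at 11.93 and 10.62 in the pools, a difference of -1.72 ± 0.10 with TA and -1.31 in vehicle. A second probe set had -1.32 and -1.21. Cyp4a3, a fatty acid omega-hydroxylase, had -1.05 ± 0.28 and -0.31. Most others of the 27 measured targets of PPAR alpha were near 0, with Fabp1, a fatty acid binding protein, between 15.73 and 15.83 on all arrays, and the list had medians of 0.02 and -0.01. Cpt1a, Srebf1, Angptl8 and Ppargc1a passed the test of the shared effect with the 60th percentile filter, at which Irs2 was not tested.

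In glycogen metabolism, Ppp1r3b, which targets protein phosphatase to glycogen, was at 9.56 and 10.48 at 6 h and at 12.10 and 12.54 at 24 h with TA, and at 11.27 and 12.22 in the pools. The TA difference was 2.30 ± 0.39 and the vehicle difference 0.95. Slc2a2, the glucose transporter GLUT2, and Ugp2, which makes UDP-glucose, were lower by 0.53 with TA and had -0.82 and -0.73 in vehicle. In this list of 16 genes 4 were higher and 4 lower without overlap, near the 24% and 23.2% over all genes. Among lipoprotein genes, 11 of 24 were lower and 3 higher without overlap, with Abca1, the cholesterol exporter, at -1.23 ± 0.22 with TA and -0.32 in vehicle (-0.69 to -0.88 with TA on its 3 other probe sets), and Lpl, lipoprotein lipase, at -1.39 ± 0.50 and 0.21. Apob had -0.32 ± 0.08 and -0.15. Genes of cholesterol synthesis were close to level, with medians of -0.03 with TA and 0.18 in vehicle, and Sqle, squalene epoxidase, had -0.50 ± 0.08 and -0.29.

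Hsd17b2, which oxidises oestradiol and testosterone, was at 13.91 and 13.67 at 6 h and at 11.37 and 11.27 at 24 h with TA, and at 14.02 and 11.04 in the pools. Its difference of -2.48 ± 0.12 with TA and -2.98 in vehicle had a shared effect of -2.65 ± 0.14 (limma, adjusted p = 0.0538). Genes of bile acid synthesis and transport were mostly lower at 24 h as well. Cyp8b1, the 12-alpha-hydroxylase that sets the share of cholic acid, was at 13.19 and 12.57 and then at 11.31 and 10.56 with TA, and at 11.26 and 10.42 in the pools. The uptake transporters Slco1a4 and Slco1b2 had -0.74 ± 0.11 and -0.58 ± 0.11, each with -0.78 in vehicle, and the bile salt export pump Abcb11 had -0.51 ± 0.12 and -0.53. Acox2, the peroxisomal oxidase of the bile acid side chain, was at 12.12 and 10.41 and then at 9.60 and 10.15. Of 21 measured genes, 12 were lower and 2 higher without overlap, 10 of the 12 also lower in vehicle, with medians of -0.33 and -0.41. Nr1h4, encoding the bile acid receptor FXR, was higher, by 0.52 ± 0.15 and 0.45.

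**Figure D3:**
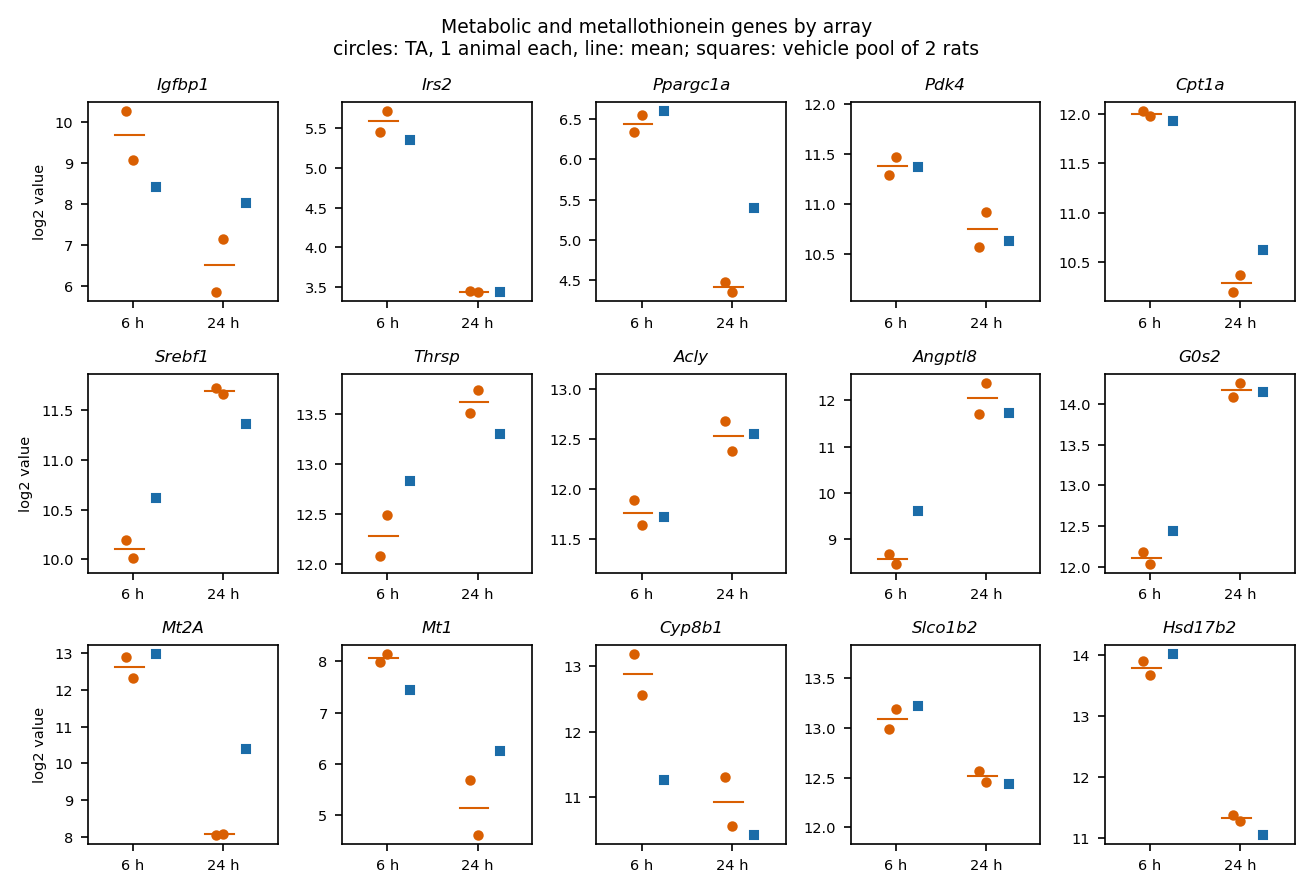
Log2 values of 15 genes of fasting, lipid, bile acid and metal handling on each array at 6 h and 24 h, with circles for TA animals and squares for vehicle pools. Irs2, Cpt1a, Slco1b2 and Hsd17b2 are low and Srebf1, Angptl8 and G0s2 high on every array of 24 h, while Igfbp1 is spread at 6 h and 24 h with TA and nearly level in the pools.

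The metallothionein genes were the other large difference. Mt2A, encoding a cysteine-rich protein that binds zinc, was at 12.91 and 12.32 at 6 h and at 8.04 and 8.09 at 24 h with TA, and at 12.98 and 10.39 in the pools. Its difference was -4.56 ± 0.23 with TA and -2.59 in vehicle. Mt1 was at 7.98 and 8.14 and then at 5.69 and 4.61, with 7.44 and 6.26 in the pools. Both were lower at 24 h on every array, and by more with TA, an excess of -1.97 ± 0.40 for Mt2A that was not called (limma, adjusted p = 1). Other genes that glucocorticoids induce went both ways. Sgk1, a kinase that regulates ion transport, was at 8.32 and 9.08 and then at 10.57 and 11.61, against 9.84 and 10.30 in the pools. Tat, tyrosine aminotransferase, had 1.53 ± 0.34 and 1.13, while Klf9 had -0.82 ± 0.27 and -1.78 and Fkbp5, a cochaperone of the receptor, -0.49 ± 0.25 and -0.18.

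The cell cycle list, which has the most measured genes, held the largest number of higher genes, though not the largest share. Of 46 measured genes, 32 were higher and 4 lower at 24 h without overlap, 30 of the 32 also higher in vehicle, against 24% and 23.2% of all genes. The median difference was 0.58 with TA and 0.49 in vehicle, and 8 genes were higher and 1 lower by 2-fold without overlap. Aurka, a kinase of the mitotic spindle, was at 5.21 and 5.51 at 6 h and at 7.39 and 7.24 at 24 h with TA, and at 4.60 and 7.44 in the pools. Cdk1, the kinase that drives mitosis, was at 7.11 and 7.45 and then at 8.46 and 8.61, with 7.11 and 8.36 in the pools. The mitotic genes Nusap1, Prc1, Ube2c and Top2a had 1.47, 1.53, 1.43 and 1.02 with TA and 1.72, 1.58, 1.84 and 1.81 in vehicle. Every one of these 6 genes was higher on each array of 24 h than on each of 6 h.

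Other members of the list were Mcm6 and Ccne2. Mcm6, a subunit of the replicative helicase, was at 5.62 and 5.89 and then at 7.24 and 7.86 with TA, and at 5.74 and 6.68 in the pools. Ccne2, cyclin E2, was at 4.64 and 3.99 and then at 6.08 and 6.11, with 4.80 and 4.95 in the pools, and its excess of 1.64 ± 0.44 was not called (limma, adjusted p = 1). Cdkn1a, encoding the inhibitor p21, was at 6.69 and 6.50 and then at 8.77 and 8.52, with 7.08 and 7.80 in the pools, but its second probe set, near the floor, had -0.02. Lower at 24 h were Cdkn3, a phosphatase of cyclin-dependent kinases, with -1.37 ± 0.15 and -1.20, and the cyclin gene Ccnb2, with -0.88 ± 0.11 and -0.43. With the 60th percentile filter 9 of 40 tested genes of the list were called higher and 1 lower, against 1.06% and 0.805% of the 8322 genes, the 1 being Cdkn3. The share of dividing cells and the RNA per cell cannot be told apart in bulk tissue, here or for any marker below.

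Heat shock and chaperone genes were higher in TA and vehicle alike, with 11 of 22 genes higher without overlap, all 11 also higher in vehicle, and 1 lower. Hsph1, a large heat shock protein, was at 8.09 and 8.19 at 6 h and at 9.76 and 9.29 at 24 h with TA, and at 8.47 and 9.63 in the pools. Fkbp4, a cochaperone of HSP90, was at 10.22 and 10.14 and then at 11.59 and 11.49, with 10.27 and 11.20 in the pools. Stip1 and Chordc1, also HSP90 cochaperones, each had 0.97 with TA and 0.96 and 0.87 in vehicle. These 4 genes were called in the shared effect with the 60th percentile filter.

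In the endoplasmic reticulum, Creld2, a disulfide isomerase of its stress response, was at 10.32 and 10.01 and then at 11.62 and 11.64 with TA, and at 10.70 and 12.10 in the pools. Manf and Hspa5, a secreted protein and the main chaperone of that compartment, had 0.65 ± 0.08 and 0.52 ± 0.12 with TA and 0.56 and 0.47 in vehicle. Of the 6 lower genes of the list, 3 act in amino acid synthesis. Phgdh, the first enzyme of serine synthesis, was at 7.58 and 7.72 and then at 6.26 and 6.24, with 7.67 and 7.10 in the pools. Asns, asparagine synthetase, had -1.15 ± 0.24 with TA and 0.51 in vehicle, and Psat1, the next enzyme of serine synthesis, -0.78 ± 0.18 and 0. Over the 32 genes of this list 15 were higher and 6 lower without overlap.

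Proteasome subunit genes were higher by little and almost throughout, with 22 of 30 higher and 2 lower without overlap, 21 of the 22 also higher in vehicle. The medians were 0.23 with TA and 0.16 in vehicle, and Psmd14, the deubiquitinase of the lid, had the largest difference, 0.65 ± 0.14 and 0.42. Respiratory chain genes had 25 of 40 higher and 2 lower with TA, but only 12 of the 25 were higher in vehicle, and the medians were 0.19 and -0.02. Ndufb9, a subunit of complex I, was at 12.71 and 12.65 and then at 13.13 and 13.20, with 12.86 and 13.02 in the pools. Genes of ribosome biogenesis had medians of 0.14 (0.08 without TA_24h animal 1) and 0.23, with 14 of 31 higher and 3 lower without overlap and Wdr12, a ribosome assembly factor, at 0.59 ± 0.16 and 0.63. None of the genes of these 3 lists was called in the shared effect, also not with the 60th percentile filter.

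Of 24 measured immediate early genes, which respond quickly to growth factors and stress, 12 were lower and 3 higher at 24 h without overlap, and 9 of the 12 were also lower in vehicle. Egr1 was at 8.43 and 9.13 at 6 h and at 6.30 and 5.22 at 24 h with TA, and at 9.32 and 6.26 in the pools, with differences of -3.02 ± 0.48 and -3.06. Junb, Klf6 and Ier3 had -1.16 ± 0.50, -1.02 ± 0.15 and -1.10 ± 0.35 with TA and -2.40, -0.90 and -1.13 in vehicle. Myc was at 5.48 and 7.60 and then at 5.39 and 5.12, so that among the TA animals TA_6h animal 2 alone was high. The pools of Myc were at 6.5 and 5.44. The medians were -0.51 and -0.61, and that of TA was -0.22 without TA_6h animal 2, -0.25 without TA_24h animal 1 and -0.17 with no filter. Ier5 was among the 3, at 7.87 and 7.92 and then 8.97 and 8.96. The level of this list, given as the median over its genes of the deviation from the mean of 6 arrays, was -0.07 and 0.45 in the TA animals of 6 h and -0.32 and -0.07 in those of 24 h, so that the animals overlapped. The pools were at 0.28 and -0.35.

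Most acute phase genes were lower at 24 h with TA. Of 22 acute phase genes, 15 were lower and 2 higher without overlap, 10 of the 15 also lower in vehicle, with medians of -0.18 and -0.06. A2m, the rat acute phase protein alpha-2-macroglobulin, was at 8.67 and 9.37 and then at 8.01 and 6.87, with 9.75 and 9.04 in the pools. Stat3, which transmits interleukin 6, had -1.07 ± 0.23 and -0.59, and Lbp, which binds lipopolysaccharide, -0.80 ± 0.15 and 0.04. Hamp, encoding the iron hormone hepcidin, was at 10.69 and 10.05 and then at 11.07 and 12.95, with the pools at 12.28 and 12.05. Tfrc, the transferrin receptor, had 0.56 ± 0.14 with TA and 1.86 in vehicle.

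Of 29 cytokine and chemokine genes 12 were lower and 5 higher without overlap, against 23.2% and 24% of all genes. Vcam1, an adhesion molecule of endothelium, had -1.06 ± 0.17 and -0.91. Cxcl10, a chemokine that interferon induces, was at 4.62 and 6.12 and then 3.45 and 4.58. Among 25 interferon genes 5 were lower and 1 higher, no larger a share than the 23.2% lower over all genes. Their median of -0.18 was -0.57 without TA_24h animal 1 and 0.04 without TA_24h animal 2, and Irf7 had -0.73 ± 0.32 and -0.64. Of 19 genes of antigen presentation, RT1-S3, a class I molecule, was at 11.99 and 11.94 and then at 11.25 and 11.00, with 12.05 and 11.41 in the pools. Signal of near-identical RT1 genes cannot be told apart on these probe sets. Of the 19, 5 were lower and 1 higher without overlap, near the 23.2% lower over all genes, with medians of -0.35 with TA, -0.20 in vehicle and 0 within the second run (without TA_6h animal 1).

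Among stress genes, 9 of 25 Nrf2 targets were lower and 3 higher without overlap, against 23.2% and 24% of all genes. The medians were -0.33 with TA and -0.05 in vehicle. That of TA was -0.14 without TA_6h animal 2 and -0.13 without TA_24h animal 1. Akr7a3, an aldehyde reductase, was at 12.28 and 12.22 at 6 h and at 10.99 and 10.77 at 24 h with TA, and at 11.17 and 10.30 in the pools. Osgin1 had -1.41 ± 0.37 and -1.21, and Txnrd1, thioredoxin reductase, -0.63 ± 0.12 and -0.14. Gclc, the catalytic subunit of glutathione synthesis, was higher by 0.55 ± 0.08 and 0.71. Gsta3, a glutathione transferase, was at 9.90 and 9.77 and then at 10.73 and 10.49 with TA, and at 9.36 and 9.42 in the pools. Gstt2 had -1.38 ± 0.27 and -0.92, but its second probe set, near the floor, had 0 with TA. Of 19 measured glutathione transferase genes 3 were higher and 3 lower without overlap, and the medians were 0.01 and -0.03. Alas1, which begins haem synthesis, had 0.82 ± 0.19 and 0.46, and Cyp2j4, a fatty acid epoxygenase, -0.71 ± 0.17 and -0.74. Of 14 measured p53 targets, 7 were lower and 3 higher without overlap, with medians of -0.3 with TA and -0.16 in vehicle. That of TA was -0.02 without TA_6h animal 2. Bbc3 and Mdm2 had -0.73 ± 0.22 and -0.63 ± 0.08 with TA, and -0.94 and -0.16 in vehicle. The largest difference of this list was that of Cdkn1a, given above, which was higher, by 2.05 ± 0.14 with TA and 0.72 in vehicle.

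Markers of other liver cells differed by cell type. Stellate cell and fibroblast markers had 11 of 17 lower and 2 higher without overlap, with medians of -0.74 with TA and -0.20 in vehicle, and -0.45 within the second run, which is the value without TA_6h animal 1. Without TA_6h animal 2 it was -1.14. Their level, as the median deviation from the mean of 6 arrays, was 0.63 and 0.08 in the TA animals of 6 h, -0.64 and -0.31 in those of 24 h, and 0.28 and -0.04 in the pools. Fbln5, the elastic fibre protein fibulin, was at 5.78 and 5.60 and then at 4.09 and 3.57, with 5.66 and 4.54 in the pools. Col4a1, a basement membrane collagen, had -1.16 ± 0.18 and -0.88, and Lox, which crosslinks collagen, was higher by 0.91 ± 0.39 with TA and had -0.56 in vehicle. Loxl2, its relative, was at 6.93 and 7.0 and then at 4.45 and 4.90, though its second probe set had -0.07.

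Sinusoidal endothelial markers had 5 of 12 lower and 1 higher without overlap, and 4 of the 5 were also lower in vehicle. The medians were -0.29 with TA and -0.14 in vehicle. That of TA was -0.1 without TA_24h animal 1 and -0.54 without TA_24h animal 2. The levels with TA were 0.14 and 0.09 at 6 h and -0.42 and 0.01 at 24 h. Vwf and Stab2, an adhesion protein and a scavenger receptor, had -1.12 ± 0.19 and -0.71 ± 0.19 with TA and 0.04 and -0.04 in vehicle. Macrophage markers had 7 of 15 lower and 0 higher, with levels of 0.30 and 0.03 at 6 h and -0.22 and 0.01 at 24 h, so that animal 2 of each time was near the same level. Adgre1, a surface receptor of macrophages, had -0.67 ± 0.23 and -0.33. The myeloid marker Itgam, the myofibroblast marker Acta2 and the cholangiocyte marker Cldn4 were near the floor on every array, and so were the lymphocyte markers Cd3g, Lck and Gzmb. The part of these cells in the differences of inflammatory and matrix genes was not tested. Hepatocyte markers had medians of -0.01 with TA and -0.08 in vehicle, with Tat the highest. Periportal markers had 0.03 and -0.30 and pericentral markers -0.11 and -0.11, where the TA median was 0.21 without TA_24h animal 1 and -0.33 without TA_24h animal 2. Lymphocyte markers had 2 of 6 higher and 0 lower without overlap, against 24% and 23.2% of all genes, and a median of 0.04. The 2, Klrb1a and Cd3g, were both near the floor, from 2.95 to 3.55 and from 2.68 to 3.41 over the arrays. Neutrophil, cholangiocyte and erythroid markers had 2, 3 and 5 measured genes, of which 0, 1 and 0 were lower without overlap, and Hbb, the globin of red cells, was at 13.43 and 14.13 in the TA animals of 24 h, with all remaining arrays from 13.62 to 13.93.

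**Figure D4:**
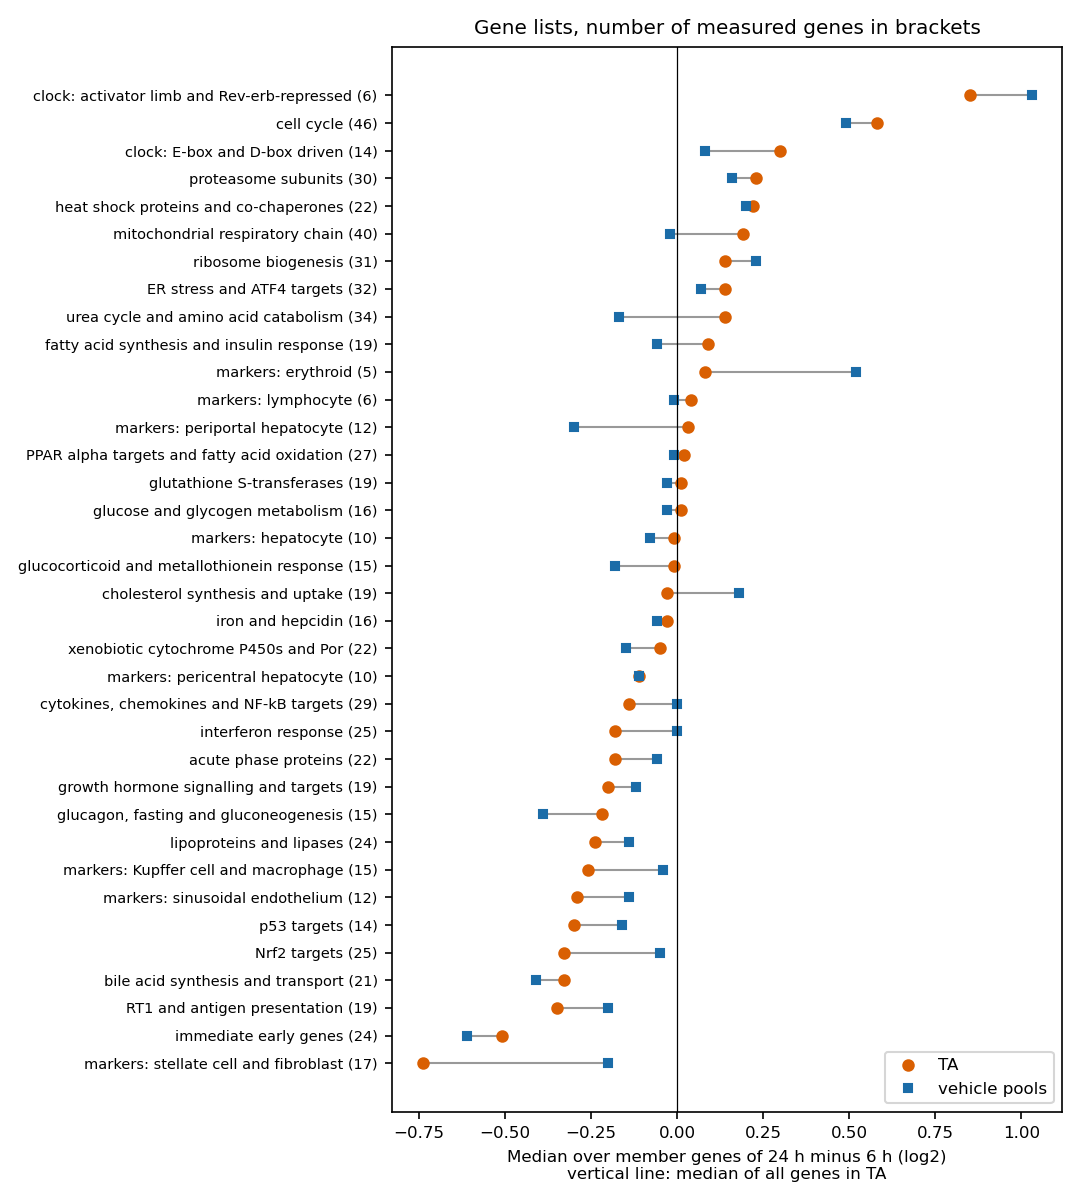
Median log2 difference of 24 h minus 6 h over the measured genes of each list of at least 4, with circles for TA and squares for vehicle pools. The clock activator limb (0.85 and 1.03) and the cell cycle (0.58 and 0.49) are highest and stellate cell markers (-0.74 and -0.20) and immediate early genes (-0.51 and -0.61) lowest by the TA median, which sets the order; the order by vehicle differs.

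Genes of amino acid catabolism had unlike values in TA and vehicle. Of 34 measured genes, 16 were higher and 3 lower at 24 h without overlap, but only 5 of the 16 were higher in vehicle, and the medians were 0.14 and -0.17. Sds, serine dehydratase, was at 9.22 and 7.96 in the TA animals of 6 h and at 10.94 and 10.68 in those of 24 h, while the pools went from 10.16 to 6.73. The TA difference was 2.22 ± 0.49 and the vehicle difference -3.43, and the difference between them, 5.65 ± 0.84, was not called (limma, adjusted p = 1). Gpt, alanine aminotransferase, was at 9.64 and 9.78 and then at 10.87 and 11.90, with 10.43 and 10.13 in the pools. Gldc, of the glycine cleavage system, had 1.08 ± 0.15 with TA and 0 in vehicle, and Gls2, liver glutaminase, 0.67 ± 0.08 and -0.30. Prodh, proline dehydrogenase, and Tat were higher on both sides, by 1.5 ± 0.31 and 1.53 ± 0.34 with TA and by 1.03 and 1.13 in vehicle.

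In the test of a difference between the time effects of TA and vehicle, 1 of 18625 probe sets was called (0.00537%), and it has no gene symbol here. Only the 24 h vehicle pool was high, at 9.84, with 5 arrays from 2.19 to 2.61, so that the call rests on 1 array and on values at the floor. It was lost with the 60th percentile filter, with the fluidics run as a term and without any 1 of the TA arrays. Of the named genes next in order, Socs2, an inhibitor of growth hormone signalling, was at 8.06 and 7.96 and then at 6.98 and 6.99 with TA, and at 9.16 and 6.13 in the pools, a difference of 2.00 ± 0.15 (limma, adjusted p = 0.854). Retsat, which saturates retinol, was at 11.60 and 11.42 and then at 13.37 and 13.13 with TA, and at 12.97 and 12.33 in the pools. Rnf39 had -0.59 ± 0.10 with TA and -2.32 in vehicle. AA926063 and Abcb9, a peptide transporter of lysosomes, were high in the vehicle pool of 24 h alone, at 6.48 and 4.46, and Rasl10b was low in the vehicle pool of 6 h alone, at 1.85. The differences of these last 3 genes rest on 1 pool array each.

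**Figure D5:**
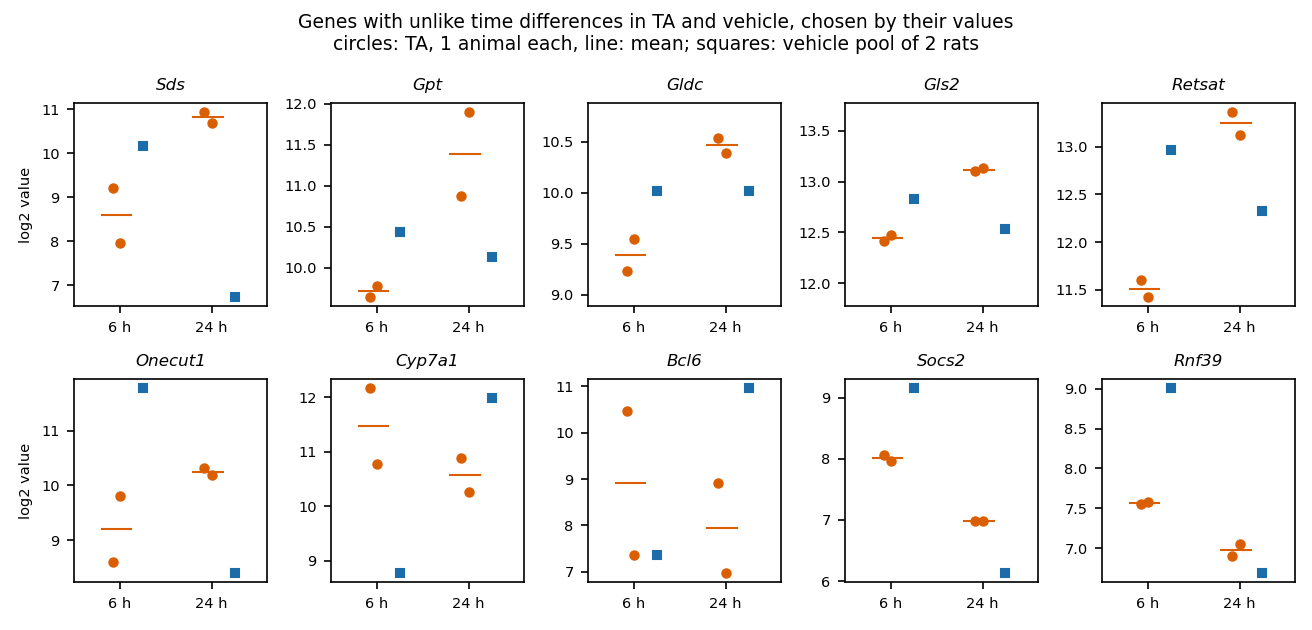
Log2 values on each array at 6 h and 24 h of 10 genes with unlike time differences in TA (circles) and vehicle (squares), chosen by their values. In Sds, Retsat and Onecut1 the TA means are higher and the pools lower at 24 h, in Cyp7a1 and Bcl6 the pools are higher, and Socs2 and Rnf39 are lower in both, by more in the pools.

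Growth hormone responsive genes also differed between animals of 1 time. Cish, which growth hormone induces quickly, was high on 2 arrays of 6 h, at 9.42 in TA_6h animal 2 and 9.01 in the pool, with the remaining 4 arrays from 3.67 to 3.90, near the floor. Bcl6, a repressor that growth hormone lowers, was at 10.46 and 7.36 at 6 h and at 8.92 and 6.97 at 24 h with TA, and the pools were at 7.37 and 10.97. Onecut1, the hepatocyte factor HNF6, was at 8.60 and 9.81 and then at 10.31 and 10.19, with 11.78 and 8.40 in the pools. Cyp7a1, which begins the classic bile acid pathway, was at 12.17 and 10.78 and then at 10.88 and 10.25, with 8.77 and 11.98 in the pools. In these 4 genes the 2 TA animals of 6 h lay further apart than the TA means of 6 h and 24 h. The pools hold other rats, given vehicle, so that a gap between a TA animal and a pool also holds the treatment. Of 19 measured genes of the growth hormone list 5 were lower and 1 higher without overlap, near the 23.2% lower over all genes.

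Other genes among the largest differences with TA belonged to no single list. Adora2b, an adenosine receptor, was at 2.65 and 3.02 at 6 h and at 7.25 and 5.02 at 24 h, with 2.73 and 3.61 in the pools, and its 3 arrays of 6 h were at the floor. Tsku, a protein that liver secretes, was at 7.53 and 8.87 and then at 10.01 and 10.39. Serpina7, which carries thyroxine in plasma, was at 9.74 and 9.20 and then at 6.71 and 6.30, with 9.44 and 8.43 in the pools. Raph1, an adaptor of the actin cytoskeleton, had -2.41 ± 0.58, but its other probe sets had -0.48 and 1.26. For Tsku and Serpina7 the TA differences were 1.99 and -2.96 and those in vehicle 0.61 and -1.01, and limma called no excess (adjusted p = 1).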

How the data were processed

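Liver RNA of 4 TA animals and 2 vehicle pools was measured on 6 Affymetrix Rat230_2 arrays, and groups were taken from the labels. The authors deposited 1 table of log2 values for 31099 probe sets. The submitters' processing notes list affy 1.5.8 and R 2.0.1 beside both RMA and GCRMA, without saying which gave these log2 values. Values have a dense floor near their low end, where differences are compressed, and arrays give no counting depth, so that their number limits the precision.

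The 57 control probe sets were left out. Probe sets above the 40th percentile of the mean over arrays (2.82) were kept, 18625 in all. The platform annotation, which can be old, gives 1 symbol for 20826 probe sets, several for 436 and none for 9780. A look-up by gene identifier for 20758 symbols changed 0. A gene was represented by its probe set of highest mean, for 10449 genes. Models were fitted in R 4.3.3 by limma 3.58.1 (eBayes; two-sided p adjusted by Benjamini-Hochberg over all tested probe sets, threshold 0.05). A model of the 4 groups gave TA at 24 h against 6 h and the difference of the time effects of TA and vehicle, and an additive model of treatment and time gave the shared time effect. Standard errors assume that a pool array varies like an animal, and p-values measure the spread between these arrays. Simulated arrays were used to test the procedure.

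Replicate numbers do not pair animals across the times (correlation of deviations -0.08). Fluidics runs were inferred from the hybridization times in the array settings, with arrays close in time taken as the same run. Members, 38 gene lists and tests were chosen with earlier results of these data known, and some genes are in several lists. Genes were named by a rule: up to 12 each way with the largest 2-fold differences without overlap, the calls of the shared effect, the 6 genes of smallest p in the difference, all measured clock genes, and in each other list the 2 largest differences without overlap. All other list members given with values, and the 10 genes of the plot of unlike differences, were chosen after their values were seen. Promoter sequences are from RefSeq (GRCr8). Alternatives were other filters, normalizations, variance priors, blocks and left-out arrays.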

Additional observations from a re-analysis of the deposited data

Results flagged for a closer look

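A probe set with no gene symbol here was singled out because the time effects of TA and vehicle differed in limma's test of that difference, by -7.21 ± 0.13 (adjusted p = 0.0418). It was at 2.61 and 9.84 in the vehicle pools of 6 h and 24 h and between 2.19 and 2.25 in the 4 TA animals, so that 1 array carries it.

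Sds, serine dehydratase, was singled out because its TA and vehicle values differed in opposite directions between the times, higher at 24 h in both TA animals (10.94 and 10.68 against 9.22 and 7.96) and lower in the vehicle pool (from 10.16 to 6.73). TA minus vehicle was 5.65 ± 0.84, and limma's test of that difference did not call it (adjusted p = 1).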

How the results depend on the processing

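The comparison of TA at 24 h with TA at 6 h called 0 probe sets under all 14 alternatives run. Medians of gene lists stayed within the spread between animals in 221 refits and moved further in 67. The 3 calls of the shared effect became 257 with the 60th percentile filter, 24 with an intensity trend, 5 with quantile normalization, and 0 with no filter or median centring. They were 0 with the run as a block and 0 to 2 when 1 array was left out, 2 without TA_24h animal 1 and 1 without TA_6h animal 2. The 1 call of the difference became 0 with the 60th percentile filter, with the run block and without each TA array. With the replicate number as a block, though the numbers pair no animals, the shared effect and the difference each called 0, and Nr1d1 kept -5.21. The 100 higher and 75 lower probe sets 2-fold apart became 328 and 311 at 1.5-fold, 7 and 13 at 4-fold, and 161 and 195 within the second run. Without 1 TA array they were 161 to 247 and 188 to 292, where fewer arrays make overlap rarer. Signs of values near 0 turned for Npas2 (-0.80 to 0.21 when 1 array was left out, 0.06 without TA_6h animal 2), for Rasl10b (-0.02 to 0.03) and Per3 (-0.02 to 0.04; both -0.02 with the run block) and for Per1 (0.01 with quantile normalization, median centring or without TA_6h animal 2, and 0 without TA_24h animal 2). The cause was not tested. Quantile normalization and centring moved the median of the TA differences by 0.013 and 0.017.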

Other observations

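Genes outside the lists, and Hnf4a from the hepatocyte markers, also passed the test of the shared effect, though only with the 60th percentile filter. With it 257 of 12417 probe sets (2.07%) were called, and the genes given here were chosen after their values were seen. Lower at 24 h was Adh4, an alcohol dehydrogenase that also oxidises retinol, at 10.40 and 10.06 with TA at 6 h and 8.09 and 8.49 at 24 h, with 10.34 and 8.24 in the pools. Abcb4, which exports phosphatidylcholine into bile, was at 10.59 and 10.53 and then at 9.31 and 9.32, with 10.89 and 9.26 in the pools. Both were lower on all 3 arrays of 24 h than on all 3 of 6 h. Slc4a4, a bicarbonate cotransporter, had a shared effect of -1.81 ± 0.14, and Klhl24 had -0.92, -0.95 and -1 on its 3 probe sets. Gabarapl1, of the autophagosome, had -0.84 ± 0.10 and -1.49 ± 0.17 on its 2. Hnf4a, a nuclear receptor of hepatocyte identity, had -1.43 ± 0.22 on the probe set that passed. In the fit with the 40th percentile filter it had -1.74 on another and 0.14 on its brightest one, which stood for it among the hepatocyte markers.

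Higher at 24 h under the same filter were Odc1, which begins polyamine synthesis, at 9.80 and 9.72 and then at 10.87 and 10.82 with TA (10.19 and 10.99 in the pools), and Nnmt, which methylates nicotinamide, with a shared effect of 0.92 ± 0.11. Nr1h3, encoding the oxysterol receptor LXR alpha, had 0.63 ± 0.09. Irs3, an insulin receptor substrate, was at 5.42 and 4.26 and then at 7.08 and 6.59, with 4.25 and 6.69 in the pools. In each of these genes TA and vehicle differed between the times in the same direction.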
